A study of Mus musculus with 13 samples.

Results

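The genes of 10 tissue repair growth factors and matrix proteins are described here in mouse macrophages: Igf1, Pdgfa, Pdgfb, Pdgfc, Vegfa, Vegfb, Tgfb1, Tgfbi, Hbegf and Fn1. They were chosen by name, as the 10 listed genes among 28307 genes with a probe, and they carry 23 of the 41174 non-control probes. All 10 entered the fit of 20894 genes, which asked for a probe well above background on each array of 1 group or more. Of the 23 probes, 20 passed that filter. The macrophages were grown for 6 days from bone marrow of male C57Bl/6J mice aged 12 to 16 weeks, in medium with 30% L929-conditioned medium. KO IL-4 cells (n = 3) carried floxed Hdac3 with LysM Cre and received 10 ng/mL interleukin-4 for 24 h, and control IL-4 cells (n = 3) carried floxed Hdac3 without Cre and received the same dose. KO vehicle cells (n = 3) and control vehicle cells (n = 4) were of the same genotypes and received 0.1% bovine serum albumin for 24 h. The floxed part is exons 4 to 7, which both genotypes carry between loxP sites, so the gene's loss and the presence of Cre cannot be told apart, and LysM Cre cuts in myeloid cells. The labels do not tell whether arrays of a group stand for separate animals or cultures, so p-values cover only the spread between these arrays, which may be technical.

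As background, macrophages clear debris in an injured tissue and then secrete factors that drive its repair. IGF1, the PDGFs and HB-EGF are ligands of receptor tyrosine kinases on fibroblasts, muscle and epithelial cells, VEGFA and VEGFB are ligands of receptor tyrosine kinases on endothelial cells, and TGF-beta 1 is a latent cytokine that drives matrix production. Fibronectin and the TGF-beta-induced protein TGFBI are matrix proteins bound by integrins. Interleukin-4 brings macrophages into the alternative state that is associated with repair, and HDAC3 is a histone deacetylase that works in corepressor complexes.

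Levels are log2 intensity relative to the array's 75th percentile, which is 0 on this scale, from the brightest probe of each gene. Levels of different genes rest on different probes and are not compared with each other. A gene was called at an adjusted p under 0.05 (limma, 13 arrays in 1 fit, Benjamini-Hochberg over all genes). Hdac3 itself read -3.22, -3.42 and -4.09 on the KO IL-4 arrays, against -1.95, -2.34 and -1.85 on the control IL-4 arrays. It read -3.71, -3.16 and -3.51 on the KO vehicle arrays, against -1.75, -2.18, -2.05 and -2.21 on the control vehicle arrays. The KO cells kept 34.7% of the control signal under IL-4 (adjusted p = 0.00380, limma) and 37.6% in vehicle (adjusted p = 0.00290). The probe was well above background on 2 of the 3 KO IL-4 arrays and on every array of the other groups. Whether it lies in the floxed exons was not checked. Spots well above background made up 56.2% to 83.2% of non-control spots, lowest on control vehicle array 4 and KO IL-4 array 15, and the number of arrays limits the precision. All 8 macrophage markers were well above background on every array. Of the 8, 1 was called higher and 3 lower for IL-4 in control cells, and 0 and 1 in KO cells. For HDAC3 loss 2 were called higher and 1 lower in each treatment. Their summed level (linear) was 528 to 565 on control IL-4 and 584 to 639 on control vehicle arrays. It was 563 to 601 on KO IL-4 and 579 to 592 on KO vehicle arrays. Their part in the results below was not tested. Fewer cells of a type and less RNA per cell cannot be told apart in such bulk samples. Arrays of a group all sat at the same slide position, so an effect of position cannot be told apart from the group.

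Of the 10 genes, 5 passed the test in at least 1 comparison and 5 in none. HDAC3 loss raised 1 gene in vehicle and the same gene, Vegfa, under IL-4. IL-4 changed 5 genes in control cells (Igf1, Hbegf and Pdgfa higher, Pdgfb and Vegfa lower) and 3 genes in KO cells (Igf1 higher, Pdgfb and Vegfa lower). Of all genes, 4.69% were called for HDAC3 loss in vehicle (2.37% higher and 2.31% lower), 3.59% for HDAC3 loss under IL-4 (1.94% higher and 1.65% lower), 5.71% for IL-4 in control cells (2.64% higher and 3.07% lower) and 2.21% for IL-4 in KO cells (1.12% higher and 1.09% lower). The IL-4 responses of the 2 genotypes differed for 0 of the 10 genes, against 0.00479% of all genes (1 gene). At an unadjusted p under 0.05 the genotype difference held for 0 of the 10 genes and for 818 of all genes. With each array set to its median in place of the 75th percentile, IL-4 raised 2 and lowered 0 of the 10 genes in control cells (adjusted p = 0.0915 for Pdgfa, 0.118 for Pdgfb and 0.216 for Vegfa), and raised 1 and lowered 0 in KO cells (0.0877 for Vegfa and 0.158 for Pdgfb, limma). That scaling moved the median log2 fold change of all genes for IL-4 in KO cells by 0.104, and the split of calls there was 183 higher and 110 lower, against 233 and 228 at the 75th percentile. With normexp background correction and quantile normalization together, HDAC3 loss raised 3 and lowered 1 in vehicle (Vegfb lower, adjusted p = 0.0354), and raised 1 and lowered 1 under IL-4 (Igf1 lower, adjusted p = 0.0461, limma). The HDAC3 comparisons and the IL-4 comparisons share groups, so their values are given side by side only.

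**Figure D1:**
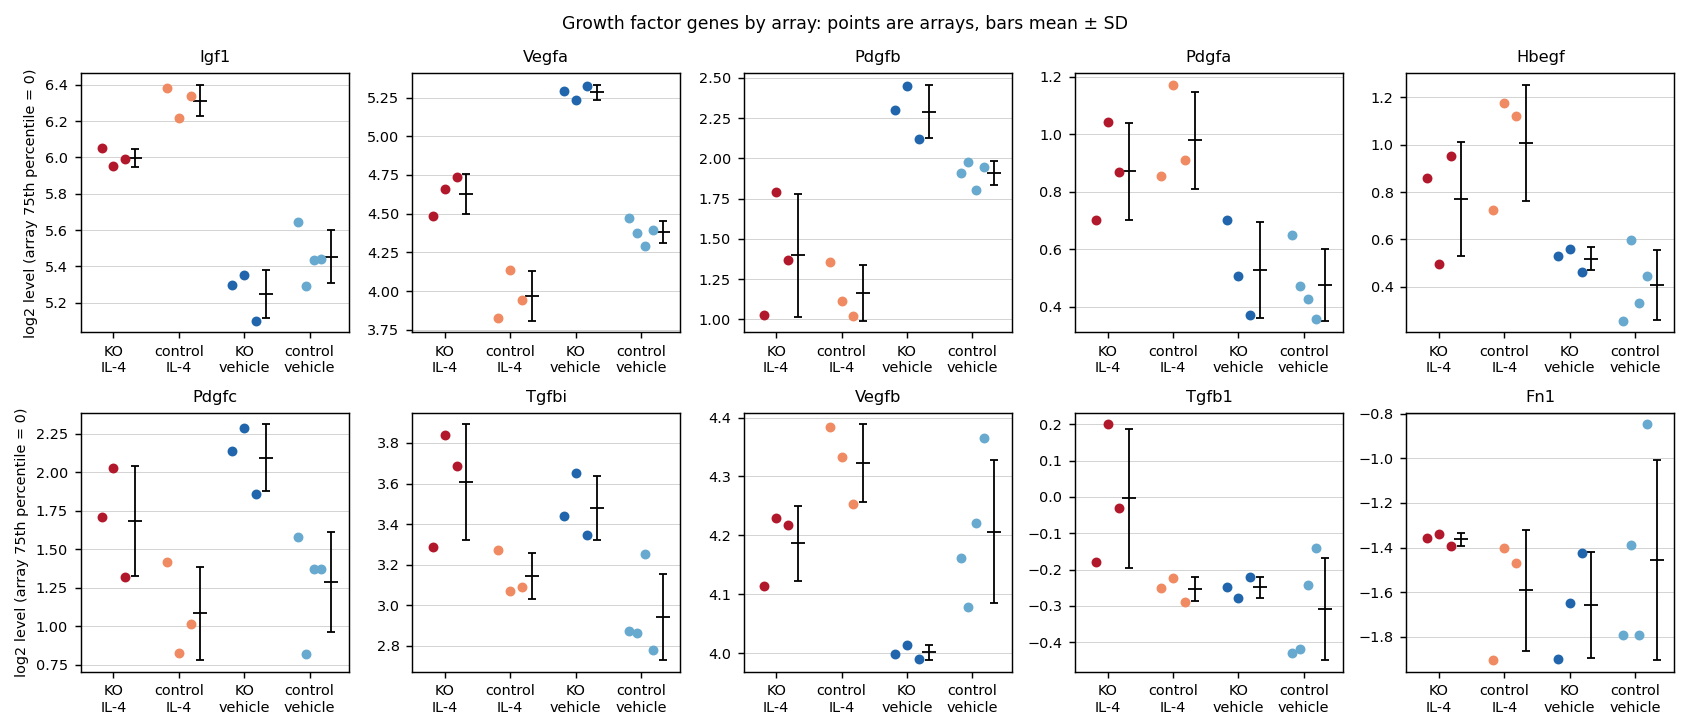
Log2 level of the 10 genes on each array, with the array's 75th percentile at 0, in KO IL-4, control IL-4, KO vehicle and control vehicle cells (3, 3, 3 and 4 arrays). Points are arrays and bars are the mean ± SD. For Vegfa the KO arrays lie above the control arrays in both treatments, and for Igf1 the IL-4 arrays lie above the vehicle arrays in both genotypes.

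Vegfa, the ligand that drives growth of new blood vessels, was the gene that HDAC3 loss raised. It read 5.29, 5.23 and 5.33 on the KO vehicle arrays, against 4.47, 4.37, 4.29 and 4.39 on the control vehicle arrays. Every KO vehicle array lay above every control vehicle array. The mean was 5.28 ± 0.047 in KO vehicle (SD, n = 3) and 4.38 ± 0.073 in control vehicle cells (SD, n = 4), a 1.87-fold higher level (log2 fold change 0.90, SE 0.10, adjusted p = 0.000376, limma). Under IL-4 the levels were 4.49, 4.66 and 4.74 on the KO arrays, against 3.82, 4.14 and 3.94 on the control arrays. The groups again did not overlap, and Vegfa was 1.58-fold higher in KO IL-4 cells (log2 fold change 0.66, SE 0.11, adjusted p = 0.00527, limma).

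IL-4 went the other way on Vegfa. In KO cells IL-4 lowered it to 4.63 ± 0.13, against 5.28 ± 0.047 in vehicle (SD, n = 3 each), which left 63.4% of the vehicle level (log2 fold change -0.66, adjusted p = 0.00652, limma). In control cells IL-4 lowered it to 3.97 ± 0.16 (SD, n = 3), against 4.38 ± 0.073 in vehicle (SD, n = 4), which left 75.04% (log2 fold change -0.41, adjusted p = 0.0305, limma). The order of the groups was thus KO vehicle, KO IL-4, control vehicle and control IL-4, and none of these neighbours overlapped in their arrays. The gap of KO IL-4 and control vehicle cells was narrow (lowest array 4.49 against highest 4.47), and their difference was not tested. The genotype difference in the IL-4 response was -0.24 on the log2 scale, with a 95% interval from -0.56 to 0.075 (adjusted p = 0.9997, limma).

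The rise of Vegfa with HDAC3 loss was seen on each slide that held both groups. In vehicle the KO array exceeded its control array by 0.82, 0.86 and 1.03 on slides 1, 2 and 3, and with slide as a block the log2 fold change was 0.90 (adjusted p = 0.00371, limma). Under IL-4 the differences were 0.66 and 0.52 on slides 1 and 2, and 0.65 with slide as a block (adjusted p = 0.0341, limma). The IL-4 effect was -0.81, -0.58 and -0.59 on slides 1, 2 and 3 in KO cells, and -0.66 with the block (adjusted p = 0.0279, limma). In control cells it was -0.65, -0.23 and -0.45 on slides 1, 2 and 4, and with the block it no longer passed the test (log2 fold change -0.41, adjusted p = 0.0968, limma). That call in control cells also ended without control vehicle array 1, 2, 3 or 4, control IL-4 array 9 or 12, or KO vehicle array 5 (adjusted p 0.0501 to 0.127, limma), while the direction stayed.

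Vegfa has 4 probes on the array, all on the minus strand of chromosome 17 (mm9). The brightest lies at chr17:46154387-46154446, and others at chr17:46155512-46155571 and chr17:46169039-46169098. All 4 were higher with HDAC3 loss in vehicle, with log2 fold changes from 0.72 to 0.99, and 3 of the 4 passed the test over all kept probes. Under IL-4 the range was 0.65 to 0.73, and the brightest alone passed. For IL-4 in control cells the probe at chr17:46155512-46155571 gave -0.028 (adjusted p = 0.979), against -0.41 to -0.61 for the others.

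Vegfa has 2 upstream windows in the RefSeq table. The 250 bases before its more upstream start, at chr17:46032378-46032627 (minus strand, RefSeq, GRCm38.p6), are shown because Vegfa was called in all 4 comparisons. Capitals mark GGGCGG, the GC box letters read by SP1-type factors.
Vegfa upstream: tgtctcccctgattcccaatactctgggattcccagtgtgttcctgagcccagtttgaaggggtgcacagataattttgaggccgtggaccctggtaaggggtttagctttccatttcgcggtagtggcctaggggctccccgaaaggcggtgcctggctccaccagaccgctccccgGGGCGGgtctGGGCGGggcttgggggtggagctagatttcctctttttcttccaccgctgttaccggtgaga
The window holds 2 GC boxes, 72 and 62 bases before the start. On either strand, 32.7% of the 32851 upstream windows of that length hold at least 1. It has no match to ACGTG, the hypoxia response core (16.6% of windows), to TTC and GAA spaced by 4 bases, the letters bound by STAT6 (5.85%), or to GAGGAAG, a PU.1-type motif (10.6%). The window of the other start, at chr17:46025164-46025413, holds 1 ACGTG 211 bases and 1 GC box 158 bases before that start, and no match to the STAT6 or PU.1-type letters. A match is a description of letters and not of a bound site.

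**Figure D2:**
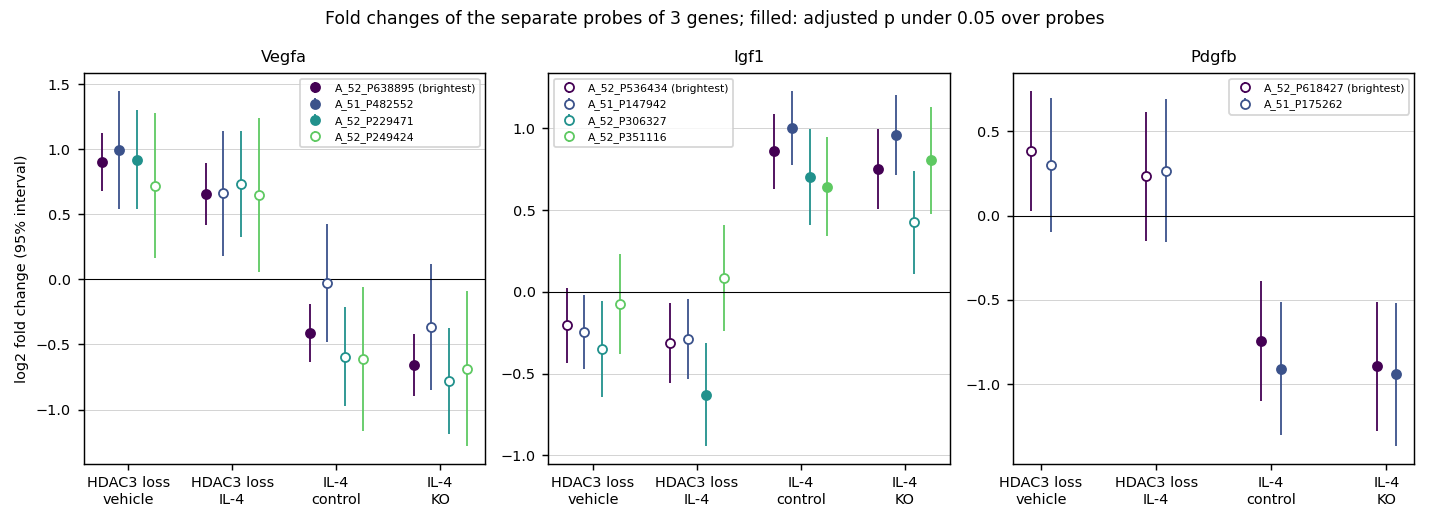
Log2 fold change of each kept probe of Vegfa, Igf1 and Pdgfb in the 4 comparisons, with 95% intervals. Filled points passed an adjusted p of 0.05 over all kept probes. All 4 Vegfa probes lie above 0 for HDAC3 loss, all 4 Igf1 probes lie above 0 for IL-4 and both Pdgfb probes lie below 0 for IL-4.

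Igf1, the insulin-like growth factor that macrophages supply to regenerating muscle, was the member with the smallest adjusted p for IL-4 in both genotypes. It read 6.05, 5.95 and 5.99 on the KO IL-4 arrays, against 5.30, 5.35 and 5.10 on the KO vehicle arrays. It read 6.38, 6.22 and 6.34 on the control IL-4 arrays, against 5.65, 5.30, 5.44 and 5.44 on the control vehicle arrays. The IL-4 arrays lay above the vehicle arrays in both genotypes, with no overlap. Igf1 was 1.68-fold higher with IL-4 in KO cells (log2 fold change 0.75, SE 0.11, adjusted p = 0.00352, limma) and 1.81-fold higher in control cells (log2 fold change 0.86, SE 0.10, adjusted p = 0.000367, limma).

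Within slides 1, 2 and 3 the IL-4 effect on Igf1 in KO cells was 0.76, 0.60 and 0.89, and with slide as a block 0.75 (adjusted p = 0.0111, limma). Within slides 1, 2 and 4 it was 0.74, 0.92 and 0.90 in control cells, and 0.84 with the block (adjusted p = 0.00241, limma). HDAC3 loss gave a log2 fold change of -0.31 under IL-4 (95% interval -0.55 to -0.073, adjusted p = 0.185) and -0.20 in vehicle (95% interval -0.43 to 0.021, adjusted p = 0.441), neither of which passed the test. The KO IL-4 arrays lay below the control IL-4 arrays without overlap, while the vehicle groups overlapped. The order of the groups was control IL-4, KO IL-4, control vehicle and KO vehicle, and its last neighbours did not differ beyond their spread.

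The 4 Igf1 probes lie on the plus strand of chromosome 10 (mm9). The brightest, at chr10:87376418-87376477, is printed because the Igf1 values above come from it, and it holds 1 forward frame free of stop codons.
Igf1 probe: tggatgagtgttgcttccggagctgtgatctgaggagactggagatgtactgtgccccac
In control cells all 4 probes rose with IL-4 (log2 fold changes 0.64 to 1.002). In KO cells 3 of 4 passed the test, and the probe at chr10:87325382-87325441 gave 0.43 (adjusted p = 0.210, limma over probes). That probe, which the array design assigns to a separate cDNA clone, was the one Igf1 probe called for HDAC3 loss under IL-4. It read 1.43, 1.24 and 1.38 on the KO IL-4 arrays, against 1.66, 2.18 and 2.08 on the control IL-4 arrays (log2 fold change -0.63, adjusted p = 0.0379, limma over probes). In a fit of every probe without the filter this call was lost. There 0 of the 23 probes of the 10 genes were called lower. The probe at chr10:87396567-87396626 gave 0.086 in the same comparison (adjusted p = 0.854), so the Igf1 probes disagreed there in sign.

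The 250 bases before the annotated Igf1 start, at chr10:87860861-87861110 (plus strand, RefSeq, GRCm38.p6), are shown because Igf1 was called for IL-4 in both genotypes. Capitals mark GAGGAAG, the PU.1-type motif.
Igf1 upstream: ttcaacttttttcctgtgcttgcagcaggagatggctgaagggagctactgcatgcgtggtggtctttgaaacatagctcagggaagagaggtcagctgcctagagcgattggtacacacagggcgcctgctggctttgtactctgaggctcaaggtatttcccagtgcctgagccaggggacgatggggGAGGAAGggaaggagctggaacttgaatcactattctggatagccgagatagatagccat
The motif stands once, 60 bases before the start, and the window has no match to the STAT6 letters, ACGTG or GGGCGG. RefSeq windows were found for 7 of the 10 genes (Igf1, Pdgfa, Pdgfc, Tgfb1, Tgfbi, Vegfa and Vegfb), and none of their windows held the STAT6 letters.

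Pdgfb, the gene for the PDGF B chain that recruits pericytes and fibroblasts, fell with IL-4 in both genotypes. It read 1.03, 1.79 and 1.37 on the KO IL-4 arrays, against 2.30, 2.45 and 2.12 on the KO vehicle arrays. It read 1.35, 1.12 and 1.02 on the control IL-4 arrays, against 1.91, 1.97, 1.80 and 1.95 on the control vehicle arrays. Every IL-4 array lay below every vehicle array of its genotype. IL-4 left 53.8% of the vehicle level in KO cells (log2 fold change -0.89, SE 0.17, adjusted p = 0.0194, limma) and 59.6% in control cells (log2 fold change -0.75, SE 0.16, adjusted p = 0.0182, limma).

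Within slides 1, 2 and 3 the fall of Pdgfb was -1.28, -0.66 and -0.75 in KO cells, and -0.89 with slide as a block (adjusted p = 0.0410, limma). Within slides 1, 2 and 4 it was -0.56, -0.86 and -0.93 in control cells, and -0.78 with the block (adjusted p = 0.0345, limma). The call in KO cells ended without KO vehicle array 5 or 6 or KO IL-4 array 15 (adjusted p 0.0691 to 0.0916), and the call in control cells ended without control vehicle array 2 or control IL-4 array 10 or 12 (adjusted p 0.0524 to 0.0927, limma). The second Pdgfb probe, at chr15:79827138-79827197 (mm9, minus strand), gave -0.94 in KO cells and -0.91 in control cells, and both passed the test (adjusted p = 0.0283 and 0.0117, limma over probes). The brightest lies at chr15:79826327-79826386. HDAC3 loss gave 0.23 under IL-4 (adjusted p = 0.606) and 0.38 in vehicle (95% interval 0.026 to 0.74, adjusted p = 0.314, limma).

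Platelets and their precursors also carry Pdgfb, so markers of that lineage were read. Summed over 7 markers, their level (linear, relative to the 75th percentile) ran from 25.1 to 33.5 on the KO IL-4 arrays, against 30.5 to 45.5 on the KO vehicle arrays, and from 18.2 to 28.1 on the control IL-4 arrays, against 25.8 to 38.7 on the control vehicle arrays. Between 4 and 5 of the 7 markers were well above background on every array of a group, and Gp9 was above it on no array. None of the 6 fitted markers was called in any of these comparisons. Their part in the Pdgfb result was not tested.

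Pdgfa, the gene for the PDGF A chain, and Hbegf, the heparin-binding ligand of the EGF receptor, rose with IL-4 in control cells. Pdgfa read 0.86, 1.17 and 0.91 on the control IL-4 arrays, against 0.65, 0.47, 0.43 and 0.36 on the control vehicle arrays (1.42-fold, log2 fold change 0.50, SE 0.13, adjusted p = 0.0374, limma). Hbegf read 0.73, 1.17 and 1.12 on the control IL-4 arrays, against 0.26, 0.60, 0.33 and 0.45 on the control vehicle arrays (1.51-fold, log2 fold change 0.60, SE 0.14, adjusted p = 0.0284, limma). For both genes the IL-4 arrays lay above the vehicle arrays.

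In KO cells neither gene passed the test. Pdgfa read 0.70, 1.04 and 0.87 on the KO IL-4 arrays, against 0.70, 0.51 and 0.37 on the KO vehicle arrays (log2 fold change 0.34, 95% interval 0.051 to 0.64, adjusted p = 0.299, limma). Hbegf read 0.86, 0.50 and 0.95 on the KO IL-4 arrays, against 0.53, 0.56 and 0.46 on the KO vehicle arrays (log2 fold change 0.25, 95% interval -0.081 to 0.59, adjusted p = 0.557, limma). In KO cells the IL-4 and vehicle arrays overlapped for both genes. The genotype difference in the IL-4 response was -0.16 for Pdgfa (95% interval -0.56 to 0.24) and -0.35 for Hbegf (95% interval -0.80 to 0.11), both with an adjusted p of 0.9997 (limma), so a difference between the genotypes was not shown.

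Both IL-4 calls in control cells were close to the threshold. Within slides 1, 2 and 4 the IL-4 effect was 0.21, 0.70 and 0.55 for Pdgfa and 0.47, 0.58 and 0.68 for Hbegf. With slide as a block they were 0.49 (adjusted p = 0.0882) for Pdgfa and 0.60 (adjusted p = 0.0806, limma) for Hbegf. The Pdgfa call ended without control vehicle array 2, 3 or 4, control IL-4 array 9, 10 or 12, KO vehicle array 6 or KO IL-4 array 15 (adjusted p 0.0552 to 0.150). The Hbegf call ended without control vehicle array 1, 3 or 4 or control IL-4 array 10 or 12 (adjusted p 0.0611 to 0.134, limma). Pdgfa has a second, dimmer probe, at chr5:139455132-139455191 (mm9, minus strand), which gave -0.17 for IL-4 in control cells (adjusted p = 0.876, limma over probes), so the 2 Pdgfa probes disagreed in sign. The brightest lies at chr5:139453029-139453088.

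**Figure D3:**
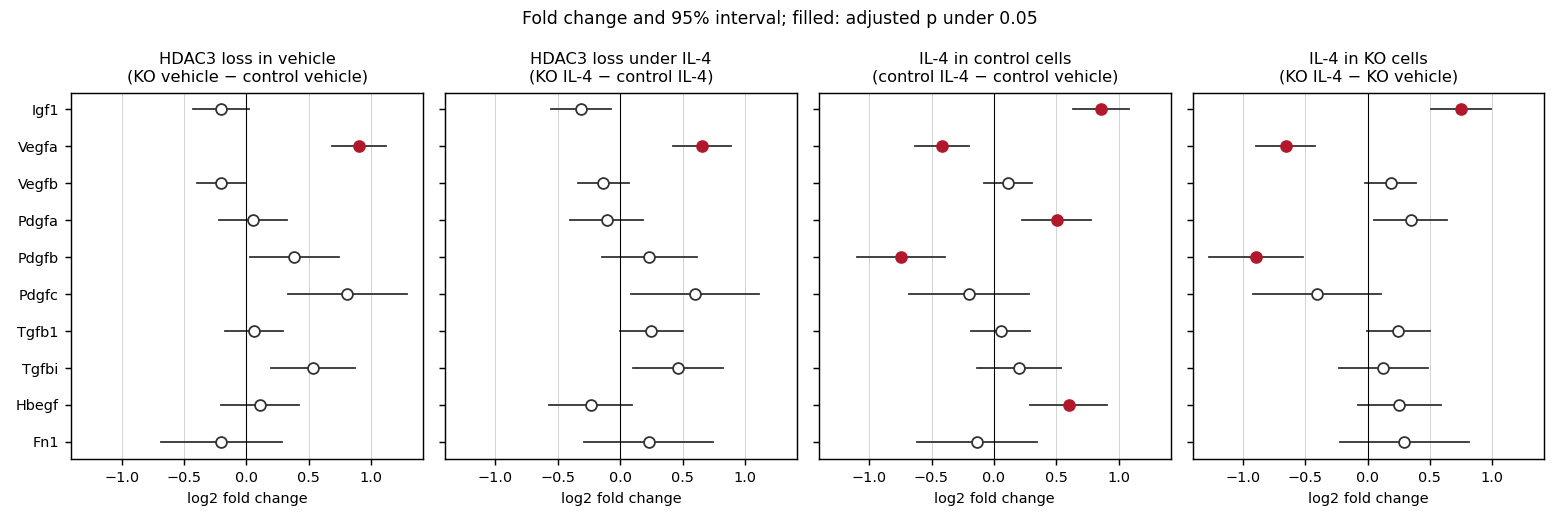
Log2 fold change of the 10 genes with 95% intervals for HDAC3 loss in vehicle, HDAC3 loss under IL-4, IL-4 in control cells and IL-4 in KO cells. Filled points passed an adjusted p of 0.05 over all genes: Vegfa for HDAC3 loss in both treatments, Igf1, Vegfa and Pdgfb for IL-4 in both genotypes, and Pdgfa and Hbegf for IL-4 in control cells.

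Pdgfc, a PDGF that is secreted with a domain that must be cut off before it binds its receptor, was not called, but its vehicle groups did not overlap. It read 2.14, 2.28 and 1.86 on the KO vehicle arrays, against 1.58, 0.82, 1.37 and 1.37 on the control vehicle arrays (log2 fold change 0.81, 95% interval 0.33 to 1.29, adjusted p = 0.0630, limma). Under IL-4 it read 1.71, 2.03 and 1.32 on the KO arrays, against 1.42, 0.82 and 1.01 on the control arrays (log2 fold change 0.60, adjusted p = 0.238), and the groups overlapped. A second kept probe gave 0.87 in vehicle (adjusted p = 0.0526, limma over probes) and 0.80 under IL-4 (adjusted p = 0.122). The 2 probes lie at chr3:81017419-81017478 and chr3:81017572-81017631 (mm9, plus strand). In vehicle Pdgfc did pass the test under 7 of 28 alternatives, and in the others its adjusted p reached 0.264 (limma). It passed with normexp and quantile normalization (adjusted p = 0.00671), array weights (0.0102), trend and robust variance (0.0150) and quantile normalization alone (0.0292). It also passed with the authors' deposited values (0.0309), probes well above background on every array (0.0370) and without KO IL-4 array 14 (0.0495, limma). Within slides 1, 2 and 3 the vehicle difference was 0.56, 1.46 and 0.49, and within slides 1 and 2 it was 0.29 and 1.21 under IL-4. IL-4 gave -0.41 in KO cells and -0.20 in control cells, with adjusted p of 0.529 and 0.803.

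Tgfbi, a secreted matrix protein, had the same kind of pattern. It read 3.44, 3.65 and 3.35 on the KO vehicle arrays, against 2.87, 2.87, 3.25 and 2.78 on the control vehicle arrays (log2 fold change 0.54, 95% interval 0.20 to 0.87, adjusted p = 0.0832, limma). Under IL-4 it read 3.29, 3.84 and 3.69 on the KO arrays, against 3.27, 3.07 and 3.09 on the control arrays (log2 fold change 0.46, adjusted p = 0.191, limma). The KO arrays lay above the control arrays in both treatments. Tgfbi in vehicle likewise passed under 7 of 28 alternatives, and in the others its adjusted p reached 0.338 (limma). It passed with normexp and quantile normalization (adjusted p = 0.0132), trend and robust variance (0.0192), array weights (0.0241) and quantile normalization alone (0.0463). It also passed with the authors' deposited values (0.0493), without control vehicle array 3 (0.0433) and without KO IL-4 array 13 (0.0489, limma). Within slides 1, 2 and 3 the vehicle difference was 0.57, 0.79 and 0.092, and within slides 1 and 2 it was 0.015 and 0.77 under IL-4. Its probe lies at chr13:56740460-56740519 (mm9, plus strand).

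Vegfb, a VEGF that binds FLT1, and Tgfb1 moved least. Vegfb had log2 fold changes between -0.21 and 0.19 over the 4 comparisons, and Tgfb1 between 0.054 and 0.25. For Vegfb the KO vehicle arrays (4.00, 4.01 and 3.99) lay below the control vehicle arrays (4.16, 4.08, 4.22 and 4.37), at an adjusted p of 0.320 (limma). Tgfb1 read -0.18, 0.20 and -0.030 on the KO IL-4 arrays, against -0.25, -0.22 and -0.29 on the control IL-4 arrays (log2 fold change 0.25, adjusted p = 0.337, limma). Its probe, spotted 10 times, lies at chr7:26489877-26489936 (mm9, plus strand), and the brightest Vegfb probe lies at chr19:7056962-7057019 (mm9, minus strand).

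Fn1, the gene for fibronectin, has 3 probes that gave different pictures. They are printed because the account of Fn1 depends on which is read. All lie on the minus strand of chromosome 1 (mm9), and each holds at least 1 forward frame free of stop codons.
A_52_P11817: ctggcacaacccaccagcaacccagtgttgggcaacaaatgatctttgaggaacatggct
A_51_P100856: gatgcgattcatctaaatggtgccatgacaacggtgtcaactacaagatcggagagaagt
A_52_P299974: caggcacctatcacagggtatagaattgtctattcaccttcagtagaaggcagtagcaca
The brightest, A_52_P11817 at chr1:71644127-71644186, read -1.36, -1.34 and -1.39 on the KO IL-4 arrays, against -1.90, -1.40 and -1.47 on the control IL-4 arrays (log2 fold change 0.23, adjusted p = 0.727, limma). It read -1.90, -1.65 and -1.42 on the KO vehicle arrays, against -1.79, -1.39, -1.79 and -0.85 on the control vehicle arrays (log2 fold change -0.20, adjusted p = 0.883, limma). Its KO IL-4 arrays lay above the control IL-4 and KO vehicle arrays, by a narrow gap, and the vehicle groups overlapped. It was called in none of the 4 comparisons.

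A_51_P100856, spotted 10 times, covers chr1:71637422-71639659, a genomic span of 2238 bases for a probe of 60 bases, and did not pass the filter on dim probes. It read -2.76, -2.93 and -3.43 on the KO IL-4 arrays, against -4.67, -5.07 and -4.30 on the control IL-4 arrays. The KO vehicle arrays read -5.24, -4.99 and -5.75, against -5.43, -6.26, -5.83 and -4.97 on the control vehicle arrays. The KO IL-4 arrays lay above all others. On KO IL-4 arrays 13, 14 and 15, 10, 10 and 1 of its 10 spots were well above background, and on every other array 0 or 1 was. In a fit of every probe without the filter, an alternative chosen after the values were seen, it was higher in KO IL-4 than in control IL-4 cells (adjusted p = 0.0399) and higher in KO IL-4 than in KO vehicle cells (adjusted p = 0.00817, limma). Because the probe was well above background on no array of the control IL-4 or KO vehicle group and on 2 of the 3 KO IL-4 arrays, its difference is known only roughly. Against the lowest signal well above background on each dim array, or the probe's own value where higher, it was 2.17-fold higher in KO IL-4 than in control IL-4 cells, and 2.42-fold higher in KO IL-4 than in KO vehicle cells. The KO IL-4 mean took array 15 as measured, where the probe was not well above background, so these values are not strict lower bounds. The third probe, A_52_P299974 at chr1:71673888-71674646, was well above background on none of the 13 arrays. Stromal cells make much fibronectin, and 10 stromal markers summed to 10.3 to 11.6 on the KO IL-4 arrays, against 8.56 to 10.97 on the control IL-4 arrays, and to 11.1 to 11.7 on the KO vehicle arrays, against 11.1 to 12.2 on the control vehicle arrays. Between 7 and 8 of the 10 were well above background on every array of a group, and none of the 8 fitted was called. Pdgfrb was above it on some but not all KO IL-4 arrays and on no array of the other groups. Cxcl12 was above it on some but not all vehicle arrays of each genotype and on no IL-4 array. Their part in the Fn1 and Tgfbi values was not tested.

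**Figure D4:**
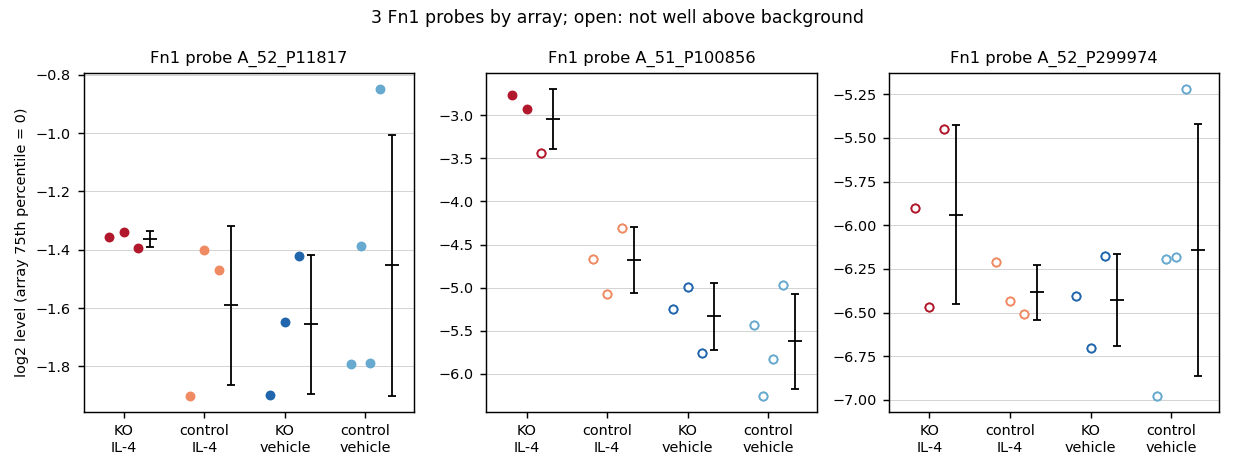
Log2 level of the 3 Fn1 probes on each array in KO IL-4, control IL-4, KO vehicle and control vehicle cells, with bars for the mean ± SD. Open points were not well above background. A_51_P100856 is highest on the 3 KO IL-4 arrays, A_52_P11817 passed the test in no comparison and A_52_P299974 was well above background on no array.

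Over all 10 genes the median log2 fold change was 0.085 for HDAC3 loss in vehicle (0.020 over all genes), 0.23 for HDAC3 loss under IL-4 (-0.029 over all genes), 0.085 for IL-4 in control cells (-0.0035 over all genes) and 0.22 for IL-4 in KO cells (-0.062 over all genes). The genes whose pattern over the 13 arrays was most like that of a called member were named by Pearson r, as a description over arrays that share 4 groups. For Vegfa they were Dab2 (r = 0.971) and Clec4n (r = 0.968). For Igf1 they were Clic4 (r = 0.992) and Oxct1 (r = 0.982). For Pdgfb they were Dmpk (r = 0.935) and Chchd6 (r = 0.932), for Pdgfa Prr15 (r = 0.923) and Pak4 (r = 0.923), and for Hbegf Clec5a (r = 0.934) and Lpcat1 (r = 0.908).

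Among 14 receptors of these ligands, 11 were fitted. IL-4 raised Flt1, the VEGF receptor bound by both VEGFA and VEGFB, in both genotypes. Flt1 read 0.83, 0.23 and 1.61 on the KO IL-4 arrays, against -1.36, -1.52 and -1.33 on the KO vehicle arrays (log2 fold change 2.30, adjusted p = 0.000647, limma). It read 2.82, 2.99 and 2.99 on the control IL-4 arrays, against -0.999, -0.85, -0.71 and -0.96 on the control vehicle arrays (log2 fold change 3.81, adjusted p = 5.01e-06, limma). Under IL-4, Flt1 was lower in KO than in control cells (log2 fold change -2.04, adjusted p = 0.00122, limma). Of its 5 kept probes, 3 passed the test in each of these comparisons. For IL-4 the lowest probe value was -0.47 in KO and -0.14 in control cells, so the Flt1 probes disagreed there in sign. By their brightest probes, Vegfa and this receptor went opposite ways in both the IL-4 comparisons and HDAC3 loss under IL-4.

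Kdr, the main VEGFA receptor of endothelium, was lower with HDAC3 loss under IL-4 (log2 fold change -1.01, adjusted p = 0.00764) and in vehicle (-1.14, adjusted p = 0.00183, limma). It was not well above background on KO IL-4 array 15. The 6 endothelial markers, Kdr among them, summed to 1.005 to 1.26 on the KO IL-4 arrays, against 1.23 to 1.72 on the KO vehicle arrays, and to 1.16 to 1.23 on the control IL-4 arrays, against 1.49 to 1.76 on the control vehicle arrays (linear, relative to the 75th percentile). The sum was lower on every control IL-4 array than on any control vehicle array, and the KO groups overlapped. Their median log2 fold change was -0.47 for IL-4 in KO cells and -0.45 in control cells, and Tie1 was above background on no array. Their part in the receptor values was not tested. Igf1r, the receptor of IGF1, was higher with HDAC3 loss under IL-4 (0.73, adjusted p = 0.00843) and in vehicle (0.62, adjusted p = 0.0114, limma) by its brightest probe, while neither of its other 2 probes was called and their lowest values were -0.45 and -0.23. Without KO vehicle array 5 the call in vehicle ended (adjusted p = 0.0738). IL-4 in control cells lowered Tgfbr1, a TGF-beta receptor (-0.58, adjusted p = 0.00263), and Nrp1, a VEGF coreceptor (-0.57, adjusted p = 0.00458, limma), each by 1 of its probes. Kdr was the third receptor that IL-4 lowered in control cells, named after its value was seen (-0.70, adjusted p = 0.0255), and that call ended without control vehicle array 1, 2 or 3 or control IL-4 array 10 or 12 (adjusted p 0.0599 to 0.111). Scaling to the median ended the calls of Kdr and Nrp1 for IL-4 and of Igf1r in vehicle (adjusted p 0.0591 to 0.0714, limma). The mean over probes ended the calls of Tgfbr1 and Nrp1 for IL-4 and of Igf1r in both treatments (adjusted p 0.191 to 0.309, limma). The counts were 1 higher and 2 lower for HDAC3 loss under IL-4, 1 and 1 in vehicle, 1 and 0 for IL-4 in KO cells, and 1 and 3 for IL-4 in control cells. The list's median log2 fold changes were 0.064, 0.11, -0.12 and -0.15, against -0.029, 0.020, -0.062 and -0.0035 over all genes. Of all genes, 3.59%, 4.69%, 2.21% and 5.71% were called in these comparisons. The counts and medians of the lists below stand against the same values.

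**Figure D5:**
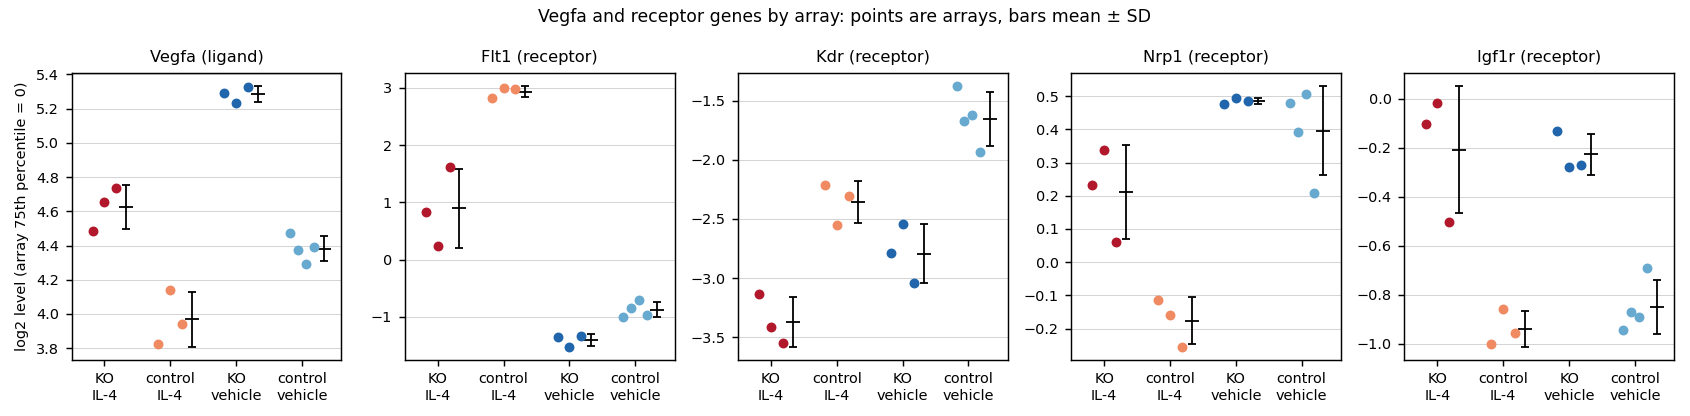
Log2 level of Vegfa and of the receptor genes Flt1, Kdr, Nrp1 and Igf1r on each array in KO IL-4, control IL-4, KO vehicle and control vehicle cells, with bars for the mean ± SD. Flt1 is highest on the 3 control IL-4 arrays, where Vegfa is lowest.

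Of 14 integrins and matrix partners of fibronectin and TGFBI, 13 were fitted. HDAC3 loss in vehicle raised 3 and lowered 0: Cd44, the hyaluronan receptor (0.68, adjusted p = 0.000908), Thbs1, the TGF-beta-activating thrombospondin (1.70, adjusted p = 0.00311), and Sdc1, a syndecan coreceptor (1.88, adjusted p = 0.00669, limma). Under IL-4 Cd44 alone was called (0.66, adjusted p = 0.00242). Sdc1 gave 1.20 there and Thbs1 0.96 by its brightest probe. Neither was called, though the KO IL-4 arrays lay above the control IL-4 arrays for both. In vehicle 1 of the 2 kept Thbs1 probes was called, and the dimmer gave 0.82. IL-4 raised Sdc4, the syndecan that works with fibronectin receptors, in KO cells (0.87, adjusted p = 0.000810) and in control cells (1.16, adjusted p = 2.56e-05, limma). IL-4 lowered the integrin chain Itgav in KO cells (-0.47, adjusted p = 0.0221) and in control cells (-0.59, adjusted p = 0.00147), by 1 of 5 probes. The highest Itgav probe value was 0.16 in each genotype. With the mean over probes both calls ended (adjusted p = 0.371 in KO and 0.309 in control cells, limma). The Itgav call in KO cells ended without KO vehicle array 5, 6 or 7 or KO IL-4 array 15 (adjusted p 0.0673 to 0.0992, limma), in the fit with the slide block (adjusted p = 0.0692) and with median scaling (adjusted p = 0.356). The list's median was 0.36 for HDAC3 loss under IL-4, 0.18 in vehicle, 0.085 for IL-4 in KO cells and 0.031 in control cells.

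Of 15 other ligands of these families, 11 were fitted and 1 was called. Tgfb3 read -1.18, -1.70 and -1.52 on the KO vehicle arrays, against -0.40, -0.11, -0.80 and -0.48 on the control vehicle arrays (log2 fold change -1.02, adjusted p = 0.0386, limma). That call ended without any of control vehicle arrays 1, 2 and 4, KO vehicle arrays 5, 6 and 7 or control IL-4 array 10 (adjusted p 0.0581 to 0.184). The list's median was -0.088 for HDAC3 loss under IL-4, 0.057 in vehicle, -0.13 for IL-4 in KO cells and 0.076 in control cells.

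Of 23 genes that bind, release or process these ligands, 19 were fitted. HDAC3 loss raised Ltbp3, which tethers latent TGF-beta to matrix, under IL-4 (1.20, adjusted p = 0.00264) and in vehicle (1.55, adjusted p = 0.000281, limma). It raised Plau, the urokinase plasminogen activator, under IL-4 (1.54, adjusted p = 0.00154) and in vehicle (1.28, adjusted p = 0.00208, limma), by 1 of its 2 kept probes, and the other gave -0.58 under IL-4. In vehicle it also raised Cd9, a tetraspanin that partners pro-HB-EGF (0.46, adjusted p = 0.0211), and, outside the naming rule, the protease Furin (0.33, adjusted p = 0.0391, limma), and in the fit with the slide block neither passed (adjusted p = 0.0693 for Cd9 and 0.119 for Furin). The Cd9 call also ended without control vehicle array 1 or 3 or KO vehicle array 5 or 6 (adjusted p 0.0570 to 0.125), and the Furin call without any array other than control IL-4 array 9 or KO IL-4 array 14 (adjusted p 0.0507 to 0.139). Igfbp4, an inhibitor that holds IGF1, fell with IL-4 in KO cells (-1.30, adjusted p = 0.0210) and in control cells (-1.24, adjusted p = 0.00905, limma), so it and Igf1 went opposite ways. In KO cells that call ended without KO vehicle array 5 or 7 or KO IL-4 array 14 or 15 (adjusted p 0.0544 to 0.108), and in control cells without control IL-4 array 12 (adjusted p = 0.0533). Of the 2 kept Igfbp4 probes 1 was called in each genotype, and the dimmer gave -0.33 in KO and -0.40 in control cells. In control cells IL-4 raised Furin, which cuts pro-TGF-beta (0.42, adjusted p = 0.00879), and Ltbp3 (0.78, adjusted p = 0.0128, limma), the last not without control IL-4 array 9 (adjusted p = 0.0579). Outside the naming rule it also raised Cd9 (0.41, adjusted p = 0.0326) and Rhbdf2, a partner of the sheddase ADAM17 (0.37, adjusted p = 0.0384). Of the 2 kept Rhbdf2 probes 1 was called, and the dimmer gave 0.38. The Cd9 call ended without control vehicle array 1, 2 or 3, KO vehicle array 5 or any control IL-4 array (adjusted p 0.0549 to 0.133), and the Rhbdf2 call without any array other than control IL-4 array 10 or KO IL-4 array 14 (adjusted p 0.0545 to 0.123). The Cd9 and Rhbdf2 calls for IL-4 ended with the slide block as well (adjusted p = 0.115 and 0.0927, limma). Scaling to the median ended the calls of Cd9 and Furin in both comparisons and those of Ltbp3 and Rhbdf2 for IL-4 (adjusted p 0.0519 to 0.366, limma). The counts were 2 higher and 0 lower for HDAC3 loss under IL-4, 4 and 0 in vehicle, 0 and 1 for IL-4 in KO cells, and 4 and 1 in control cells, and the medians were 0.068, 0.084, 0.053 and 0.15.

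Of 18 genes of TGF-beta signalling or known to respond to it, 15 were fitted. HDAC3 loss under IL-4 raised Smad3, a signal carrier of the pathway (1.03, adjusted p = 0.0206), and Ski, an inhibitor of SMADs (0.40, adjusted p = 0.0361, limma). In vehicle it raised Bambi, a decoy receptor (1.87, adjusted p = 0.00534), and Ski (0.46, adjusted p = 0.0104, limma). In each of these comparisons 1 of the 3 kept Ski probes was called. With the mean over probes the Ski call in vehicle ended (adjusted p = 0.313, limma). IL-4 in control cells lowered Smad3 (-1.55, adjusted p = 0.000653) and Skil, a SMAD inhibitor (-0.58, adjusted p = 0.00392), and raised Bambi (1.69, adjusted p = 0.00780, limma). Outside the naming rule it also raised Id2 (0.83, adjusted p = 0.0340) and Smurf1 (0.42, adjusted p = 0.0431). For Skil and for Smurf1, 1 of 2 kept probes was called there, and the dimmer probes gave -0.53 and 0.085. The Id2 call ended without any control array or KO vehicle array 5 (adjusted p 0.0531 to 0.153), and the Smurf1 call without any control vehicle array, control IL-4 array 9 or 12, KO vehicle array 5 or KO IL-4 array 13 (adjusted p 0.0555 to 0.169). In KO cells 0 of the 15 were called for IL-4, against 2.21% of all genes, so that count says little about the list. The genes named for IL-4 in control cells kept their sign in KO cells. There Smad3 gave -0.55, Skil -0.23 to -0.18 over its probes, Bambi 0.76, Id2 0.87 to 0.89 and Smurf1 0.21 to 0.27. The Smad3 call under IL-4 ended without control IL-4 array 9 or 12 or KO IL-4 array 14 or 15 (adjusted p 0.0533 to 0.0858), and the Ski call in vehicle ended without KO vehicle array 5 or 6 (adjusted p 0.0590 to 0.0725). The Ski call under IL-4 ended without any array other than control vehicle array 2 or KO vehicle array 7 (adjusted p 0.0514 to 0.109). With slide as a block, the calls of Id2 and Smurf1 for IL-4 and of Ski for HDAC3 loss under IL-4 ended (adjusted p = 0.101, 0.121 and 0.0957, limma). Bambi was not well above background on control vehicle array 4. Scaling to the median ended both Ski calls and the calls of Skil, Id2 and Smurf1 for IL-4 (adjusted p 0.0532 to 0.192, limma). The medians were 0.046 for HDAC3 loss under IL-4, 0.047 in vehicle, -0.16 for IL-4 in KO cells and 0.017 in control cells.

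Since Vegfa is a known target of the hypoxia response, 20 genes of that response were read, of which 19 were fitted. HDAC3 loss raised Epas1, the gene for HIF-2 alpha, under IL-4 (0.99, adjusted p = 0.0217) and in vehicle (1.58, adjusted p = 0.000724, limma), by 1 of 3 probes. It lowered Ndrg1 under IL-4 (-0.96, adjusted p = 0.0352) and in vehicle (-1.31, adjusted p = 0.00326, limma), and Ankrd37 under IL-4 (-0.65, adjusted p = 0.0162). IL-4 in control cells raised Ankrd37 (0.87, adjusted p = 0.00105), Epas1 (1.002, adjusted p = 0.00976) and the glucose transporter gene Slc2a1 (0.66, adjusted p = 0.0124, limma), and, outside the naming rule, lowered Ndrg1 (-0.89, adjusted p = 0.0250). For Epas1, 1 of 3 probes was called there too. The lowest Epas1 probe values were -0.31 for HDAC3 loss under IL-4, -0.18 in vehicle and -0.20 for IL-4 in control cells. With the mean over probes the Epas1 calls ended for HDAC3 loss under IL-4 (adjusted p = 0.270) and for IL-4 in control cells (0.0733, limma). In KO cells 0 of the 19 were called for IL-4, against 2.21% of all genes, so that count too says little about the list. In the fit with the slide block, Ndrg1 and Ankrd37 no longer passed for HDAC3 loss under IL-4 (adjusted p = 0.119 and 0.0559), nor did Ndrg1 for IL-4 (adjusted p = 0.0548, limma). These 3 calls ended with median scaling too (adjusted p 0.108 to 0.134, limma). The Ndrg1 call under IL-4 also ended without any array other than control vehicle array 1 or 2, control IL-4 array 10 or KO IL-4 array 14 (adjusted p 0.0511 to 0.121), the Ankrd37 call without control IL-4 array 9 or 12 (adjusted p 0.0520 to 0.0760), and the Ndrg1 call for IL-4 without control vehicle array 1, 3 or 4 or control IL-4 array 10 or 12 (adjusted p 0.0595 to 0.0913). The Epas1 call under IL-4 ended without control IL-4 array 10 or 12 or KO IL-4 array 13 or 14 (adjusted p 0.0503 to 0.0967), and the Slc2a1 call without control IL-4 array 9 (adjusted p = 0.0510). The medians were -0.0074 for HDAC3 loss under IL-4, 0.13 in vehicle, -0.050 for IL-4 in KO cells and 0.0048 in control cells, against -0.029, 0.020, -0.062 and -0.0035 over all genes.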

How the data were processed

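RNA was measured on 13 one-colour Agilent arrays, labelled with Cy3 per the labels' protocols. The deposited files give, for each spot, an intensity value extracted with Agilent Feature Extraction 10.5.1.1, with mm9 probe coordinates, per the file headers. The submitters' processing notes name version 9.53 and limma. The authors' deposited value table of intensity was used as an alternative only.

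Control spots and spots flagged as outliers were dropped, and repeat spots were averaged. Values are log2 of gProcessedSignal minus the array's 75th percentile. Of 41174 probes, 101 had no usable spot on some array, and 29059 were kept because each array of 1 group or more had them well above background. The brightest probe per gene gave 20894 genes, and 25097 probes took their name through a RefSeq accession. Groups and array numbers come from the sample titles. The 4 groups were fitted together in limma 3.58.1 (R 4.3.3, eBayes, two-sided, Benjamini-Hochberg), and the script was tested on simulated data. Groups share no array numbers. Arrays of different groups shared 4 slides, which served as batches, as a block and for differences within slides. The arrays give no counting depth, and their number limits the precision.

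The 10 genes and the gene lists were chosen with earlier results of these data known. Named list genes are the 3 called genes with the smallest adjusted p per list and comparison, and genes alike in pattern are the 2 with the highest Pearson r. Alternatives changed the scaling, background correction, filter, probe rule, slide, arrays and variance model. Sequences come from the scanner files and RefSeq. The sequence and single values of 1 Vegfa probe are not reported here.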

Additional observations from a re-analysis of the deposited data

Results flagged for a closer look

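Among the genes named here, 38 were checked for a control vehicle array far from the other 3, and 2 were found. About 1 in 20 such groups shows one by chance. Sdc1 read 0.41 on control vehicle array 2, below 1.14 to 1.23 on the other control vehicle arrays. Ltbp3 read 0.59 on the same array, below 0.78 to 0.79 on the others. The KO vehicle arrays lay above all 4 control vehicle arrays for both genes, and both calls for HDAC3 loss in vehicle stood when array 2 was left out.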

How the results depend on the processing

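The labels do not give the animal or culture of an array, so arrays were not paired by origin, but the slides that groups share were fitted as a block. None of the values changed sign as a call under any alternative. Of 1390 values for the 10 genes, 1308 kept their side of the threshold, 55 lost a call, 18 gained 1 and 9 moved without a call. The number of the 10 genes called for HDAC3 loss in vehicle was 1, and it was 3 with quantile normalization, 4 with normexp and quantile normalization together, 3 with the authors' deposited values, 2 when probes had to be above background on every array, 3 with trend and robust variance, 4 with array weights and 1 to 2 without each array. For HDAC3 loss under IL-4 it was 1, with 2 under normexp and quantile normalization together, 2 with trend and robust variance and 0 with only the groups compared. For IL-4 in control cells it was 5, with 2 under median scaling, 2 with no filter, 3 with the mean over probes, 2 with every probe as its own row and no filter (chosen after seeing the data), 2 with slide as a fixed block, 2 with only the groups compared, 1 without the 2 arrays with fewest spots above background and 1 to 5 without each array. For IL-4 in KO cells it was 3, with 1 under median scaling and 0 with only the groups compared. Over all genes the calls moved too. For HDAC3 loss in vehicle they were 496 higher and 483 lower. They were 634 and 612 with quantile normalization, 728 and 700 with normexp and quantile normalization, and 627 and 616 with the authors' values. For HDAC3 loss under IL-4, 406 and 345 became 594 and 511 with normexp and quantile normalization. With median scaling, IL-4 in control cells went from 551 and 642 to 384 and 330. For these changes the cause was not tested. The rise of Vegfa with HDAC3 loss in vehicle and of Igf1 with IL-4 in control cells stood under all 28 alternatives. Vegfa under IL-4 and Igf1 in KO cells stood under 27, each lost with only the groups compared (adjusted p = 0.155 and 0.0698, limma), and Vegfa with IL-4 in control cells stood under 14. Dim probes limit Fn1.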
